A study of Mus musculus with 12 samples.

Results

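The cyclins, cyclin-dependent kinases (CDKs) and CDK inhibitors that act in G1 were followed through 10 genes, found by symbol among the 78298 gene identifiers of the count table. They are the cyclins Ccnd1, Ccnd2 and Ccne1, the kinases Cdk4 and Cdk6, the INK4 inhibitors Cdkn2a, Cdkn2b and Cdkn2c, and the Cip/Kip inhibitors Cdkn1a and Cdkn1b. Membership rests on the gene's name and not on a measured value, and all 10 were among the 22190 genes that passed the filter on low counts. Transcripts of mouse lung tissue were sequenced in 4 groups of 3 libraries: normal tissue under VEH, normal tissue under HDM, tumour under VEH and tumour under HDM. HDM stands for house dust mite, to which the animals were exposed chronically, and VEH is the label of the other treatment, used here as given. Tumours were visible LLC tumours cut out by hand under a microscope, and normal tissue was the lung beside them, so the normal libraries also come from lungs with tumours. The labels state no strain, sex, age or genotype, do not spell out LLC, and do not say whether the libraries of a group came from different animals, so that p-values measure only the spread between these libraries.

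In G1 a cell decides whether to copy its DNA. D-type cyclins activate Cdk4 and Cdk6, which phosphorylate the retinoblastoma protein and its relatives and so free E2F factors, and cyclin E with Cdk2 then completes that step and starts replication. INK4 proteins bind Cdk4 and Cdk6 alone, whereas Cip/Kip proteins bind whole cyclin-CDK complexes and inhibit Cdk2 above all. In lung, loss of INK4 genes and gain of D-type cyclins or their kinases are well-known changes in tumours.

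Total counts ran from 20608682 in tumour VEH replicate 3 to 32765364 in normal VEH replicate 2. The latter stood apart from the other normal libraries by its proliferation genes. The summed level of 10 proliferation genes was 293 CPM there (counts scaled for library size with TMM factors, the scale of all levels below) against 134 to 152 CPM in the other 5. In the same library 3 neutrophil markers summed to 648 CPM. They summed to 438 CPM in normal HDM replicate 1 and to 13.6 to 64 CPM in the remaining normal libraries. Among tumours, HDM replicate 3 held almost no RNA of the lung markers of alveolar and airway epithelium, with 6.1 CPM for 5 alveolar markers and 2.49 CPM for 3 airway markers. In the other tumours the alveolar sum was 2160 to 8250 CPM. Library names share a prefix between 1 normal and 1 tumour library, and for 4 libraries (normal VEH replicate 2, tumour HDM replicate 2, normal HDM replicate 3 and tumour VEH replicate 3) the prefix joins different treatment labels. Values without one of these libraries are given where leaving it out ended a call or moved a called value by more than 1.5 times.

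Tumours had more RNA of the G1 kinases and of cyclin E1 than the lung beside them, and far less of the INK4 inhibitor Cdkn2b, under either treatment. Under VEH, 5 of the 10 genes passed the test (edgeR's quasi-likelihood F-test, with p-values adjusted over all genes tested and a threshold of 0.05): Ccne1, Cdk4 and Cdk6 rose, and Cdkn1b and Cdkn2b fell. In that comparison 38.9% of all genes tested passed, 18.2% higher and 20.6% lower, so the number of calls by itself says little about these genes. Under HDM, 7 of the 10 passed, against 51.9% of all genes (23% higher, 28.9% lower): Ccne1, Cdk4, Cdk6, Cdkn1a and Cdkn2c rose, and Cdkn2a and Cdkn2b fell. The median log2 fold change of the 10 genes was 0.61 under VEH and 0.52 under HDM, beside -0.11 and -0.08 over all genes. With libraries scaled by their totals alone, the median of all genes became 0.03 and 0.10.

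**Figure D1:**
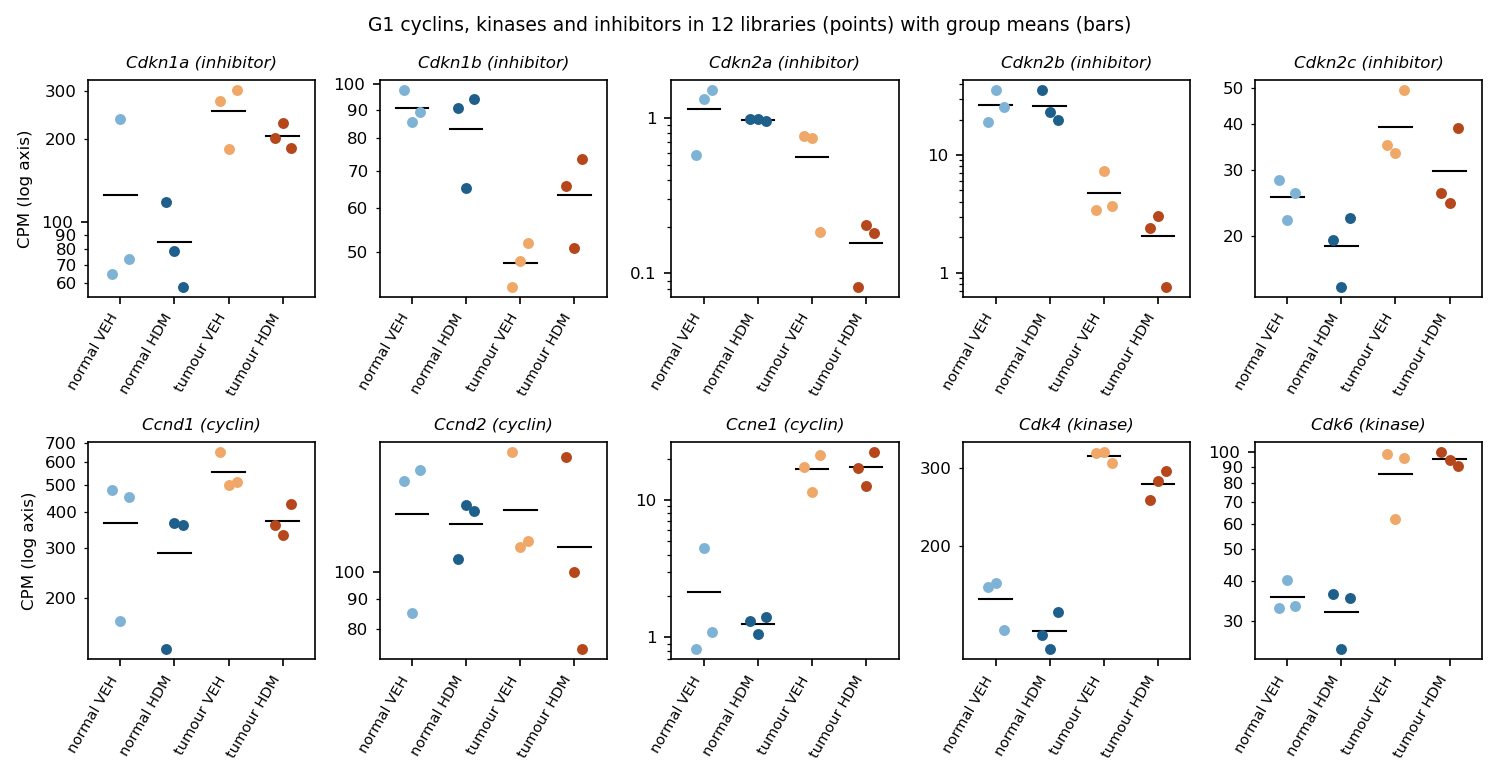
Level of each of the 10 genes in CPM (vertical log axes, each panel with its own range) in the 4 groups; each point is 1 library and each bar the mean of 3. Ccne1, Cdk4 and Cdk6 are higher in all 6 tumour libraries than in all 6 normal ones, Cdkn2b is lower in all 6, and Ccnd2 overlaps between all groups.

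**Figure D2:**
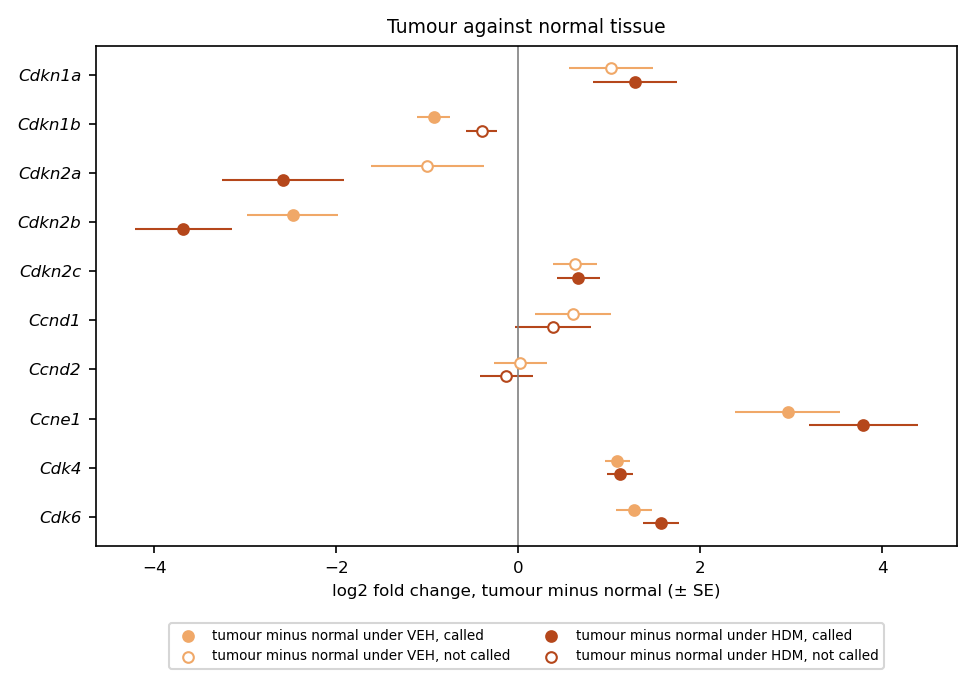
Log2 fold change of tumour over normal tissue with its SE (horizontal axis) for each gene under VEH (light) and under HDM (dark). Filled points passed the test at an adjusted p below 0.05, 5 under VEH and 7 under HDM.

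Among the cyclins, Ccne1 encodes cyclin E1, the partner of Cdk2 at the entry into S phase. Its levels, here and below in the order of replicates 1 to 3, were 0.821, 4.47 and 1.09 CPM in normal VEH, then 1.31, 1.06 and 1.4 CPM in normal HDM. In tumours it read 17.4, 11.4 and 21.3 CPM under VEH and 17.2, 12.6 and 22.3 CPM under HDM. The highest normal library lay below the lowest tumour, and that library was normal VEH replicate 2. Ccne1 rose by 2.96 ± 0.58 (SE) on the log2 scale under VEH, 7.77-fold (adjusted p 0.00333), and by 3.79 ± 0.60 under HDM, 13.8-fold (adjusted p 0.000667). Without normal VEH replicate 2 the VEH value was 4.12 (adjusted p 0.000141). By size of rise Ccne1 stood at rank 533 of 22190 genes under VEH and 519 under HDM, the highest rank of the 10 genes in both. The gene lies on chromosome 7 (GRCm39, 37797404 to 37808264, minus strand), and 70 exon bases are shared with 1600014C10Rik on the other strand. How the counting used the strand is not stated in the sources used here, so reads over such overlaps cannot be assigned to a gene with certainty.

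Ccne1 is a classical target of E2F factors. RefSeq promoters of the members (250 bases before to 50 after the start) were searched on both strands for TTTCGCGC, TTTGGCGC or GGCGGGA, letters bound by E2F. Besides Ccne1, only Cdkn2c held a match, 153 bases before a start. In Ccne1 there was 1 match, 48 bases before the start, and 12% of all 32851 RefSeq promoters hold at least 1. It overlaps a GC box (GGGCGG), which 35.7% of promoters hold. The 30 bases around it, chr7:37806945-37806974 on the minus strand, inside the annotated span of the gene, are shown with the match in capitals.
Ccne1: cggggcgcgagGGCGGGAcggggccggtgc

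The D-type cyclins did not pass in either comparison. Ccnd1, the cyclin D1 gene, read 479, 166 and 452 CPM in normal VEH, 132, 367 and 362 CPM in normal HDM, 651, 500 and 510 CPM in tumour VEH and 362, 332 and 426 CPM in tumour HDM. Per length it was the most abundant of the 10 genes in normal VEH, normal HDM and tumour VEH, and second to Cdk4 in tumour HDM (79.3 against 85.2 CPM per kb). Its tumours lay above the normal libraries under VEH and overlapped with them under HDM. The log2 difference was 0.60 ± 0.42 (adjusted p 0.273) under VEH and 0.38 ± 0.42 (adjusted p 0.472) under HDM. Without normal VEH replicate 2 the VEH difference was 0.25 (adjusted p 0.596). Normal VEH replicate 2 and normal HDM replicate 1 were far below the other normal libraries of their groups. Ccnd1 (chromosome 7, 144483668 to 144493662, minus strand) shares 2315 exon bases with LTO1 on the opposite strand, with 122861 and 62199 counts in total, so its level is uncertain by reads that may belong to LTO1.

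Ccnd2, cyclin D2 (chromosome 6, 127102125 to 127129156, minus strand, with 3 noncoding genes overlapping its exons on the other strand), read 143, 85 and 149 CPM in normal VEH and 105, 130 and 127 CPM in normal HDM. In tumours it read 160, 110 and 113 CPM under VEH and 157, 99.9 and 73.8 CPM under HDM. All 4 groups overlapped, and the log2 differences were 0.02 ± 0.29 (adjusted p 0.955) and -0.13 ± 0.29 (adjusted p 0.722). The sign of either difference turned under another scaling, such as -0.01 with DESeq2 size factors under VEH and 0.05 with library totals under HDM.

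Cdk4 and Cdk6 encode the kinases that D-type cyclins activate. Cdk4 read 161, 164 and 128 CPM in normal VEH, 125, 116 and 141 CPM in normal HDM, 326, 327 and 309 CPM in tumour VEH and 254, 281 and 296 CPM in tumour HDM. Every tumour lay above every normal library, and the SE of its fold change was the smallest among the 10 genes. The rise was 1.09 ± 0.14 (adjusted p 0.000501) under VEH and 1.12 ± 0.14 (adjusted p 0.000191) under HDM, which is 2.12-fold and 2.17-fold. Cdk4 (chromosome 10, 126895180 to 126903789, plus strand) shares 646 exon bases with Tspan31 on the other strand, with 69421 and 32873 counts in total.

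Cdk4 is a known target of Myc, which binds the E-box CACGTG. Its RefSeq promoter holds 4 such E-boxes, starting 172, 118, 98 and 11 bases before the start. At least 1 was present in 7.15% of RefSeq promoters and at least 4 in 8 promoters, or 0.0244%. The 250 bases before the start, chr10:126899154-126899403 on the plus strand, which lie inside the span that GENCODE gives the gene, are shown with the E-boxes in capitals. Among the other promoters of members, Cdk6 holds 1 E-box, 220 bases before the start, and Cdkn2c holds 1, at base 35 after a start. A match is a run of letters and not evidence of binding.
Cdk4: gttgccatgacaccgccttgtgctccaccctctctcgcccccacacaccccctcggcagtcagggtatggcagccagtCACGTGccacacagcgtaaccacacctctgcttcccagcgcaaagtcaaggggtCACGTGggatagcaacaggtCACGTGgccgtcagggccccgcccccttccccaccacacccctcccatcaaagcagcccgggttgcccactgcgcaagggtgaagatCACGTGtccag

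Cdk6 read 33, 40.1 and 33.5 CPM in normal VEH and 36.3, 24.6 and 35.3 CPM in normal HDM. In tumours it read 98.9, 62.3 and 96.1 CPM under VEH and 100, 94.4 and 90.8 CPM under HDM. No tumour reached down to a normal library, although tumour VEH replicate 2 lay well below the other 5. Cdk6 rose by 1.27 ± 0.20 (adjusted p 0.00129) under VEH and by 1.57 ± 0.20 (adjusted p 0.000251) under HDM, 2.41-fold and 2.97-fold. It lies on chromosome 5 (3391485 to 3581008, plus strand) and overlaps 3 noncoding genes on the other strand, with 257 to 399 counts in total each. The rises of Ccne1, Cdk4 and Cdk6 passed the test under every alternative that was run, each single library left out included.

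The INK4 genes Cdkn2a and Cdkn2b are neighbours on chromosome 4 (89192708 to 89212890 and 89223204 to 89229276, both minus strand), and neither overlaps an exon on the other strand. Cdkn2b, p15Ink4b, is the INK4 gene that transforming growth factor beta induces. It read 19.1, 35.6 and 25.7 CPM in normal VEH and 35.9, 23.1 and 19.8 CPM in normal HDM, but 3.4, 7.29 and 3.69 CPM in tumour VEH and 2.38, 3.01 and 0.758 CPM in tumour HDM. The highest tumour lay below the lowest normal library. Cdkn2b fell by 2.48 ± 0.50 on the log2 scale (adjusted p 0.00379) under VEH, 5.58-fold lower, and by 3.68 ± 0.53 (adjusted p 0.000394) under HDM, 12.8-fold lower. Without the 4 libraries with conflicting prefixes the VEH difference was -1.96 and did not pass (adjusted p 0.0609).

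Cdkn2a gives rise to p16Ink4a and, in another reading frame, p19Arf, which a count per gene cannot separate. It was near the limit of detection throughout. The counts were 14, 42 and 36 in normal VEH and 24, 26 and 26 in normal HDM, and 18, 20 and 4 in tumour VEH and 2, 6 and 6 in tumour HDM. As CPM these are 0.575 to 1.52 and 0.957 to 0.983 in normal tissue, 0.185 to 0.765 in tumour VEH and 0.0821 to 0.205 in tumour HDM. Under HDM all tumours lay below all normal libraries, and Cdkn2a fell by 2.59 ± 0.67 (adjusted p 0.00831), 6.01-fold lower. Under VEH the groups overlapped, and the log2 difference was -1 ± 0.62 (adjusted p 0.21). Of its 12 counts, 12 were even numbers, as were 78.3% of all counts from 2 to 19. Whether a count is a read or a pair of reads is not given in the sources used here. Halving the counts changed none of the calls on the 10 genes.

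Cdkn2c, p18Ink4c (chromosome 4, 109517957 to 109524386, minus strand, with 2 noncoding genes overlapping its exons on the other strand), was higher in tumours. It read 28.3, 22.1 and 26 CPM in normal VEH, 19.5, 14.6 and 22.4 CPM in normal HDM, 35, 33.4 and 49.3 CPM in tumour VEH and 26, 24.5 and 39 CPM in tumour HDM. Tumours lay above normal tissue within each treatment, although tumour HDM replicates 1 and 2 lay within the range of normal VEH. Cdkn2c rose by 0.66 ± 0.24 (adjusted p 0.0388) under HDM, and the difference under VEH was 0.62 ± 0.24 (adjusted p 0.0605). Both lie at the edge of the threshold. The HDM call was lost without normal HDM replicate 1 (0.69, adjusted p 0.0753), without normal HDM replicate 2 (0.51, adjusted p 0.132), without tumour HDM replicate 3 (0.56, adjusted p 0.0827) and with DESeq2 size factors (0.59, adjusted p 0.0582) or the DESeq2 Wald test (0.60, adjusted p 0.0503). The VEH difference passed when libraries were scaled by their totals alone (0.77, adjusted p 0.0361).

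Of the Cip/Kip inhibitors, Cdkn1a, p21, is the best-known target of p53. It read 64.6, 238 and 73.6 CPM in normal VEH, 118, 78.3 and 58.2 CPM in normal HDM, 277, 184 and 303 CPM in tumour VEH and 202, 229 and 186 CPM in tumour HDM. Only normal VEH replicate 2 among the normal libraries reached the level of tumours. Cdkn1a rose by 1.28 ± 0.46 (adjusted p 0.0399) under HDM, 2.43-fold, and the difference under VEH was 1.02 ± 0.46 (adjusted p 0.101). Without normal VEH replicate 2 the VEH difference was 1.89 and passed (adjusted p 0.00138), and without the 4 libraries with conflicting prefixes it was 1.84 (adjusted p 0.00807). The HDM call in turn was lost without normal HDM replicate 2 (1.22, adjusted p 0.105), normal HDM replicate 3 (1.17, adjusted p 0.105), tumour HDM replicate 1 (1.40, adjusted p 0.064) or tumour HDM replicate 2 (1.30, adjusted p 0.0802), and without the filter on low counts (1.27, adjusted p 0.117).

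Cdkn1a lies on chromosome 17 (29309936 to 29319701, plus strand), where the noncoding genes Gm64878 and Dino overlap its exons on the other strand, with 5763 and 115 counts in total against 53214. RefSeq gives the gene 2 promoters. The upstream one holds 2 matches to the p53 half-site, starting 73 and 51 bases before the start, and the other holds 0. At least 1 match is held by 8.36% of RefSeq promoters, and the share with at least 2 was not counted. The 250 bases before the upstream start, chr17:29309703-29309952 on the plus strand, are shown with both matches in capitals. Of these bases, 223 are also exon bases of Gm64878 on the other strand.
Cdkn1a: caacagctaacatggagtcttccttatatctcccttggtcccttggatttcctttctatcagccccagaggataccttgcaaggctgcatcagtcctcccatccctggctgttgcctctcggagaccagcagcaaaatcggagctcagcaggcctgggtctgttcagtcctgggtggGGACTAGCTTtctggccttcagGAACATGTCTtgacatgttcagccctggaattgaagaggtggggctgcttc

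Cdkn1b, p27, holds cells in quiescence and is degraded through Skp2. It read 97.8, 85.7 and 89.1 CPM in normal VEH, 90.7, 65.1 and 94 CPM in normal HDM, 43.3, 48.1 and 51.9 CPM in tumour VEH and 65.7, 50.8 and 73.4 CPM in tumour HDM. Tumours lay below normal tissue under VEH, while under HDM the groups overlapped. Cdkn1b fell by 0.93 ± 0.18 (adjusted p 0.00287) under VEH, and the difference under HDM was -0.40 ± 0.17 (adjusted p 0.078). Without normal HDM replicate 2 that difference was -0.55 and passed (adjusted p 0.0247), and with DESeq2 size factors it was -0.46 (adjusted p 0.0483). The gene (chromosome 6, 134897364 to 134902476, plus strand) overlaps 237 exon bases of the noncoding Gm44238, which had 3590 counts in total against 22657.

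Groups that do not overlap were also counted, without the fitted model but on the same scaled levels of the same libraries. Within each treatment, 5 of the 10 genes were higher in all 3 tumours than in all 3 normal libraries, and 2 were lower. Of all genes, 52.4% did not overlap under VEH (23.9% higher, 28.5% lower) and 63.1% under HDM (29.6% higher, 33.5% lower). Among the 10 genes the higher share was thus above that of all genes and the lower share below it, which was not tested.

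Level per length (CPM per kilobase of the deposited gene length) was used to set genes beside one another, and such comparisons depend on the length used. The deposited length is 2686 bases for Cdkn2c and 1390 for Cdkn2b, against 6358 and 2722 exon bases in GENCODE M39. For Cdkn1b both are 4552. Shares within each gene family are given on this scale without a test. Among the Cip/Kip genes, Cdkn1a held 36.4% ± 24.6 (SD, n = 3) of the summed level in normal VEH and 32.8% ± 8.79 in normal HDM, but 83.4% ± 7.40 in tumour VEH and 79.9% ± 3.87 in tumour HDM. The normal VEH share was 64.6% in replicate 2 and 22.4% on average in the other 2 libraries. Cdkn1c, p57, an imprinted inhibitor, held 42% ± 21.7 and 41.8% ± 6.10 in normal tissue and 4.08% ± 4.98 and 0.707% ± 0.656 in tumours. Tumour VEH replicate 2 held 9.79%, against a mean of 1.23% in the other 2 VEH tumours. That library also had the most alveolar (8250 CPM), airway (17400 CPM) and endothelial (487 CPM) marker RNA of its group, whose part in the share was not tested. The sum over the 3 Cip/Kip genes was 93.3 ± 11 CPM per kb in normal VEH, 72 ± 10 in normal HDM, 85.2 ± 14.9 in tumour VEH and 72.3 ± 4.13 in tumour HDM, so the family's total overlapped between tissues while its make-up differed.

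In the INK4 family, Cdkn2b held 42.9% ± 5.41 and 49.1% ± 4.81 of INK4 level in normal VEH and HDM, and 10.1% ± 5.47 and 5.78% ± 3.63 in tumours. Its share was 16.4% in tumour VEH replicate 2, against a mean of 6.94% in the other 2 VEH tumours. That library had the most alveolar marker RNA of its group (8250 CPM), whose part in the share was not tested. Most of the rest in tumours was Cdkn2c, with 41.1% ± 4.66 and 40.4% ± 4.58, and Cdkn2d (p19Ink4d), which held 32.7% ± 3.70 and 29.7% ± 1.31 in normal tissue and 47.3% ± 5.06 and 53.3% ± 0.889 in tumours. Summed INK4 level was 44.3 ± 8.94 and 38.2 ± 9.56 CPM per kb in normal VEH and HDM, and 35.2 ± 3.86 and 27.1 ± 4.13 in tumours, and the tissues overlapped under VEH but not under HDM.

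For the kinases the sum was higher in every tumour than in every normal library, with a similar make-up. Cdk4 and Cdk6 together were at 48.9 ± 6.40 and 41.5 ± 4.32 CPM per kb in normal VEH and HDM, and at 105 ± 2.52 and 92 ± 6.19 in tumours. Cdk6 held 5.22% ± 0.613 and 5.5% ± 0.820 of this in normal tissue and 5.85% ± 1.41 and 7.43% ± 0.886 in tumours. The E-type cyclins summed to 3.48 ± 1.13 and 1.97 ± 0.408 CPM per kb in normal tissue and to 13.8 ± 2.62 and 12.6 ± 5.15 in tumours. Ccne1 held 23.4% ± 21.4 of it in normal VEH (47.9% in replicate 2 and a mean of 11.1% in the other 2), 24.8% ± 7.07 in normal HDM, 44.8% ± 5.55 in tumour VEH and 53.4% ± 6.99 in tumour HDM. Ccnd1 led the D-type cyclins everywhere, with 70.5% ± 6.57 and 65.2% ± 11 in normal tissue and 80.3% ± 0.929 and 79.9% ± 5.38 in tumours.

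**Figure D3:**
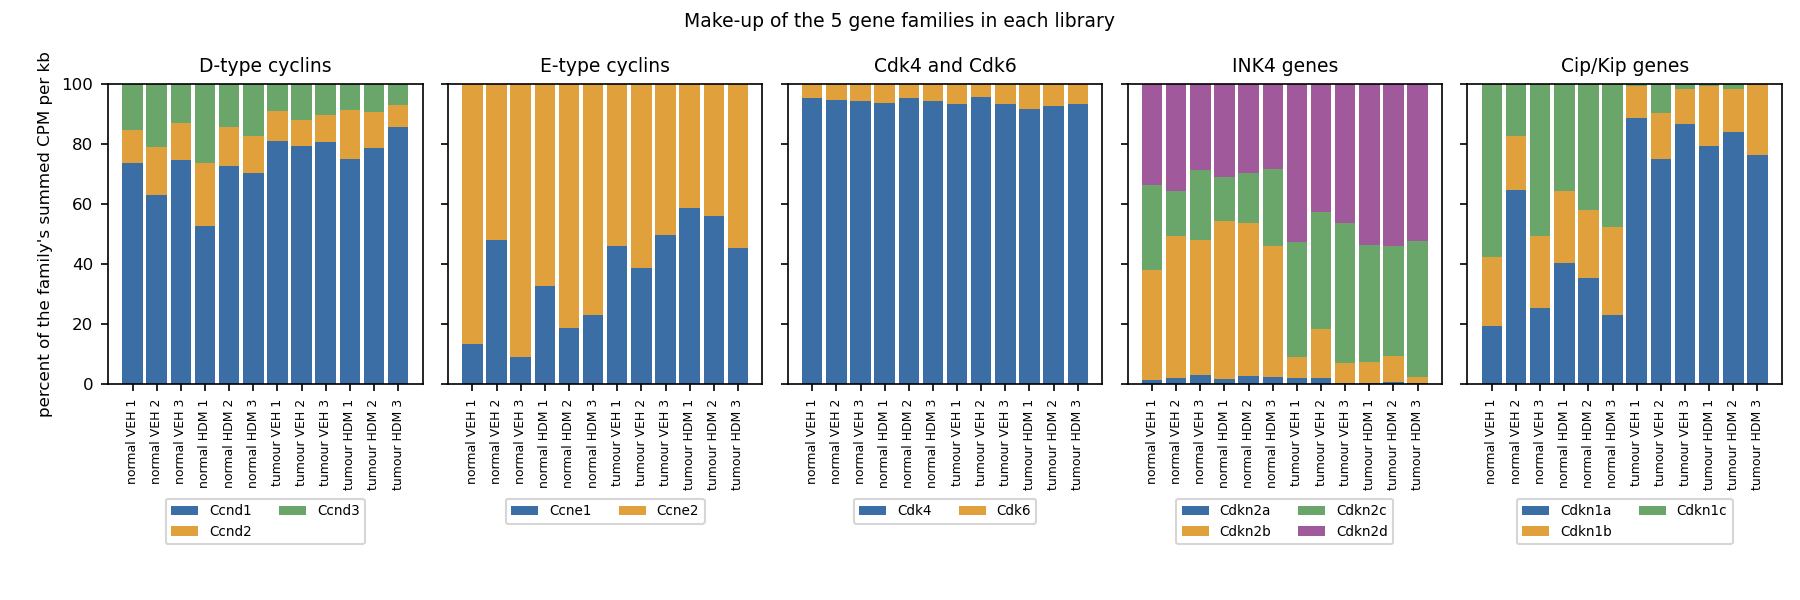
Share of each gene in the summed CPM per kb of its family (vertical axis, percent) in each of the 12 libraries (horizontal axis). Cdkn1c and Cdkn2b take up 17.2% to 57.8% and 36.8% to 52.5% of their families in normal libraries and at most 9.79% and 16.4% in tumours.

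The other genes of the pathway, listed with earlier results of these data known, were read in the same fits. Over all genes tested, 38.9% passed under VEH (18.2% higher, 20.6% lower) and 51.9% under HDM (23% higher, 28.9% lower). A count of calls near these shares says little about its list. Of 7 other G1 cyclins and kinases, 5 rose under VEH and none fell (median log2 difference 1.10), and 6 rose and 1 fell under HDM (median 1.37). Ccna2, cyclin A2, rose by 2.36 ± 0.42 and 3.16 ± 0.43, Ccne2, cyclin E2, by 1.49 ± 0.43 and 2.03 ± 0.43, and Cdk7, the CDK-activating kinase, by 1.24 ± 0.19 and 1.37 ± 0.19. Without normal VEH replicate 2 the VEH value of Ccna2 was 3.11, and that of Ccne2 was 1.28 and did not pass (adjusted p 0.0513). Ccne2 also did not pass without normal VEH replicate 1 (1.33, adjusted p 0.0688). The gene that fell under HDM was the third D-type cyclin, Ccnd3 (-0.99 ± 0.20, adjusted p 0.00255), which stood at -0.11 ± 0.20 (adjusted p 0.672) under VEH. It was named after its values were seen. Among the genes named in these lists, Ccna2, Ccne2, Cdk7, Fosl1 and Rbl2 share 714 to 4194 exon bases with protein-coding genes on the other strand.

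Of the 2 other inhibitors, Cdkn1c fell by 3.63 ± 0.90 (adjusted p 0.0108) and 5.82 ± 1.02 (adjusted p 0.00121), and Cdkn2d did not pass (0.19 ± 0.26 and 0.34 ± 0.26, adjusted p 0.568 and 0.286). Cdkn1c read 36.4 to 111 CPM in the 6 normal libraries and 0.243 to 13.8 CPM in the 6 tumours. Its VEH difference was -5.01 without tumour VEH replicate 2, -3.03 without tumour VEH replicate 1, and -3.27 without tumour VEH replicate 3, which did not pass (adjusted p 0.0522). Its HDM difference was -6.87 without tumour HDM replicate 2 and -5.19 without tumour HDM replicate 3. Of the 3 pocket proteins, which the G1 kinases phosphorylate, Rbl1 (p107) rose by 1.25 ± 0.28 and 1.57 ± 0.28, and Rb1 fell by 0.58 ± 0.16 and 0.77 ± 0.16. Rbl2 (p130), the pocket protein of quiescent cells, fell by 0.47 ± 0.11 under VEH and stood at -0.28 ± 0.11 (adjusted p 0.0547) under HDM. The VEH fall of Rb1 did not pass without normal VEH replicate 1 or tumour VEH replicate 1 or 3 (adjusted p 0.0591, 0.0723 and 0.105), nor did that of Rbl2 without tumour VEH replicate 1 (adjusted p 0.0751).

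Of 10 E2F and DP factors, 7 rose and 2 fell in each comparison (median 1.34 and 1.66). E2f8 rose by 3.30 ± 0.93 and 5.01 ± 1.01, E2f7 by 2.26 ± 0.44 and 3.19 ± 0.46, and Tfdp1 by 1.62 ± 0.17 and 2.66 ± 0.18. E2f7 and E2f8 encode repressors that are themselves E2F targets, and Tfdp1 encodes the usual DP partner. Normal VEH replicate 2 held 14.1 CPM of E2f8, against 1.31 and 0.589 CPM in the other 2, and without it the VEH rise of E2f8 was 5.80 (adjusted p 9.1e-05). Without normal VEH replicate 1 it was 2.85 and did not pass (adjusted p 0.0535). Tfdp2 fell by 1.26 ± 0.26 and 1.01 ± 0.25, the latter not passing without tumour HDM replicate 3 (-0.77, adjusted p 0.0608), and E2f2 by 0.98 ± 0.23 and 1.19 ± 0.23.

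Among 5 genes of CDK activation and protein turnover, 3 rose in each comparison and none fell (median 1.41 and 1.11). Skp2, the ubiquitin ligase subunit that marks p27 for degradation, rose by 2.73 ± 0.56 and 3.51 ± 0.58, and its cofactor Cks1b by 2.46 ± 0.51 (3.55 without normal VEH replicate 2) and 3.49 ± 0.53. The phosphatase gene Cdc25a rose by 1.41 ± 0.23 and 1.11 ± 0.23.

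Of p53 and 11 of its targets other than Cdkn1a, 8 rose and 1 fell under VEH, and 9 rose and 1 fell under HDM (median 0.93 and 1.10). Eda2r rose by 2.79 ± 0.38 and 4.21 ± 0.41, Zmat3 by 1.80 ± 0.27 and 2.34 ± 0.27, and Trp53 itself by 1.77 ± 0.17 and 2.09 ± 0.17, while Trp53inp1 fell by 1.33 ± 0.29 and 2 ± 0.29. Of 8 Polycomb genes, whose products silence the Cdkn2a locus in many cells, 3 rose and 1 fell under VEH. Under HDM, 5 rose and 1 fell, and the medians were 0.42 under VEH and 0.69 under HDM. With 38.9% and 51.9% of all genes passing, these counts by themselves say little about Polycomb genes. The methyltransferase gene Ezh2 rose by 1.93 ± 0.40 and 2.38 ± 0.41, Rnf2 by 0.91 ± 0.19 and 1.55 ± 0.19 and Eed by 0.70 ± 0.19 and 0.73 ± 0.19, and Cbx7 fell by 1.28 ± 0.24 and 1.48 ± 0.24.

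Of 10 regulators upstream of D-type cyclins and Cip/Kip genes, 3 rose and 2 fell under VEH. Under HDM, 2 rose and 4 fell, and the medians were -0.15 under VEH and -0.35 under HDM. These counts are near the shares of all genes that passed, 38.9% and 51.9%, and by themselves say little about the regulators. Myc rose by 2.95 ± 0.94 and 4.23 ± 1.00 and the AP-1 subunit gene Fosl1 by 2.86 ± 0.86 and 4.13 ± 0.91. Foxo1, an activator of Cdkn1b, fell by 2.35 ± 0.36 and 2.45 ± 0.36, and Klf4, an activator of Cdkn1a, by 2.20 ± 0.60 and 2.19 ± 0.60. Myc read 115 CPM in normal VEH replicate 2 and 6.24 to 25.8 CPM in the other normal libraries, against 264 to 390 CPM in tumours. Without that library the VEH rises were 5.49 for Myc (adjusted p 7.4e-05) and 4.66 for Fosl1 (adjusted p 0.00125). With each of the other 5 VEH libraries left out in turn, Myc did not pass (2.44 to 3.17, adjusted p 0.0534 to 0.0772). Fosl1 did not pass without normal VEH replicate 3 or tumour VEH replicate 1 (adjusted p 0.0822 and 0.056), nor did Klf4 without normal VEH replicate 3 or tumour VEH replicate 1 or 3 (adjusted p 0.055, 0.0725 and 0.0765). Under HDM, Klf4 was at -3.02 without tumour HDM replicate 2 and did not pass without tumour HDM replicate 1 (-1.84, adjusted p 0.0581). The number of these regulators called higher under VEH was 3 with all libraries and ran from 0 to 2 as single libraries were left out.

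**Figure D4:**
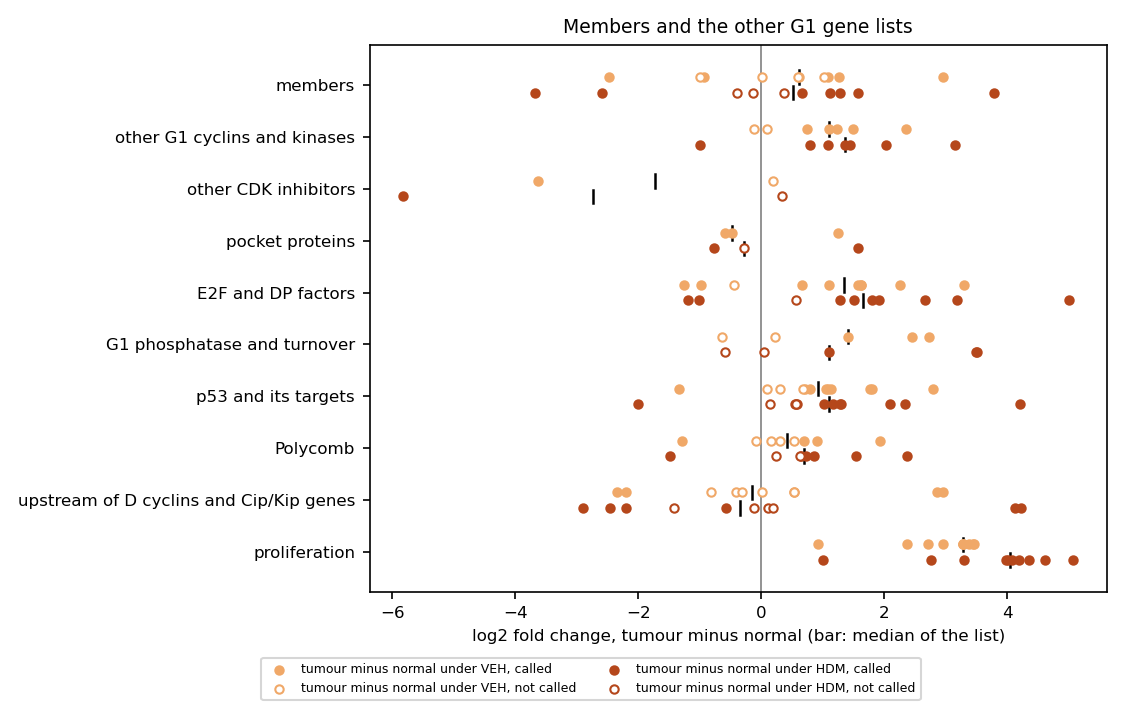
Log2 fold change of tumour over normal tissue (horizontal axis) for the 10 genes ("members") and the genes of the other lists under VEH (light) and HDM (dark), with the median of each list as a bar; filled points passed the test. The medians run from -2.74 for the 2 other inhibitors under HDM to 4.05 for the proliferation genes under HDM.

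RNA of proliferation genes and of markers of several cell types also differed between tumours and normal tissue. Over all genes tested, 38.9% passed under VEH and 51.9% under HDM. All 10 proliferation genes rose in both comparisons (median 3.28 and 4.05), among them Ccnb1 by 3.38 ± 0.76 and 5.08 ± 0.83, Top2a by 3.46 ± 0.64 and 4.62 ± 0.68 and Bub1 by 3.28 ± 0.62 and 4.2 ± 0.65. Without normal VEH replicate 2 the VEH values of these 3 were 5.09, 4.74 and 4.47. The 10 genes had sums of 134 to 293 CPM in normal libraries and 832 to 1540 CPM in tumours. All 5 endothelial markers fell in both, from sums of 1380 to 2870 CPM to 84.7 to 487 CPM. Alveolar markers summed to 16200 to 41800 CPM in normal libraries and 6.1 to 8250 CPM in tumours, with 0 of 5 passing under VEH and 5 of 5 lower under HDM, a count of 1 without tumour HDM replicate 1 or 2. Airway markers summed to 22200 to 101000 CPM in normal libraries and 2.49 to 17400 CPM in tumours, with 0 of 3 passing under VEH and 3 of 3 lower under HDM. No alveolar, airway or endothelial marker was at 0 in any library. All 3 B cell markers were lower in both comparisons (19.4 to 58.7 CPM against 1.82 to 9.37 CPM), although 1 passed under VEH without tumour VEH replicate 1 or 3. The 3 cardiac muscle markers were lower under HDM (116 to 256 CPM against 0 to 6.9 CPM), with 1 passing without tumour HDM replicate 2, and none passed under VEH. Of 5 fibroblast markers, 1 was higher in both comparisons, Dcn at 1.83 ± 0.47 and 3.66 ± 0.51, with 1 lower under VEH and 2 under HDM. With a library left out, these lower counts ran from 0 to 1 and 0 to 2. Of 5 macrophage markers, 2 were higher and 1 lower under VEH and 1 was higher under HDM. With a library left out, these counts ran from 1 to 3, 0 to 1 and 0 to 1. Of 5 T and NK cell markers, 2 were higher under VEH and 1 was lower under HDM. With a library left out, each of these 2 counts was 0 or 1. Neutrophil markers gave 2 of 3 lower under VEH and none under HDM. Under VEH none passed without normal VEH replicate 2 or tumour VEH replicate 1, 2 or 3. Adipose markers gave none under VEH and 1 of 3 lower under HDM, or 0 to 2 with a library left out. Without the 4 libraries with conflicting prefixes, no alveolar, airway, cardiac muscle or adipose marker passed under HDM, and all 3 neutrophil markers were lower. No B cell or neutrophil marker then passed under VEH, and no T and NK cell marker in either comparison. Mitochondrial genes took 1.96% to 5.38% of counts in normal libraries and 0.342% to 1.79% in tumours, without overlap. In tissue of mixed cells, fewer cells of a type and less RNA per cell cannot be told apart, and the part of cell make-up in the differences above was not tested. Ccne1, Cdk4, Cdk6 and Cdkn2b passed the tests under HDM also without tumour HDM replicate 3, the tumour with least alveolar and airway marker RNA.

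No difference between treatments passed the test for any of the 10 genes. In normal tissue none did (0% of all genes did), none was below an unadjusted p of 0.05, and the groups overlapped for each, while 10.3% of all genes did not overlap. The DESeq2 Wald test called 38 genes there and none of the 10. The log2 differences ran from -0.77 for Ccne1 (± 0.56) to -0.03 for Cdkn2b (± 0.47), with a median of -0.23 beside -0.01 over all genes. The values of Cdkn1a (-0.57 ± 0.46) and Ccne1 turned positive, to 0.30 and 0.39, without normal VEH replicate 2. Cardiac muscle markers summed to 5.26 to 28.1 CPM in normal VEH and 116 to 256 CPM in normal HDM, and their part in the differences was not tested.

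In tumours none of the 10 passed either, and 0.0946% of all genes did (0.00901% higher, 0.0856% lower). The differences of 3 had an unadjusted p below 0.05, as had 16.7% of all genes, so nothing is read from that count. They were Cdkn2a at -1.81 ± 0.67 (adjusted p 0.234), Cdkn2b at -1.23 ± 0.49 (adjusted p 0.258) and Cdkn1b at 0.41 ± 0.17 (adjusted p 0.281). Cdkn2b, Ccnd1 and Cdk4 were lower in all 3 HDM tumours than in all 3 VEH tumours, as were 10.7% of all genes (22% did not overlap in either direction). For Cdk4 that is 254 to 296 CPM against 309 to 327 CPM, a log2 difference of -0.21 ± 0.13 (adjusted p 0.451). Between the same libraries, endothelial markers summed to 301 to 487 CPM under VEH and 84.7 to 277 CPM under HDM, and T and NK cell markers to 29.2 to 45.9 CPM and 1.55 to 11 CPM, without overlap. Airway markers summed to 411 to 17400 CPM and 2.49 to 1090 CPM. No marker gene passed the test between treatments, and the part of cell make-up in these differences was not tested. Ccne1 differed by 0.06 ± 0.53 (adjusted p 0.971) and Cdk6 by 0.15 ± 0.20 (adjusted p 0.743). A p above the threshold does not show that the treatments gave equal levels.

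**Figure D5:**
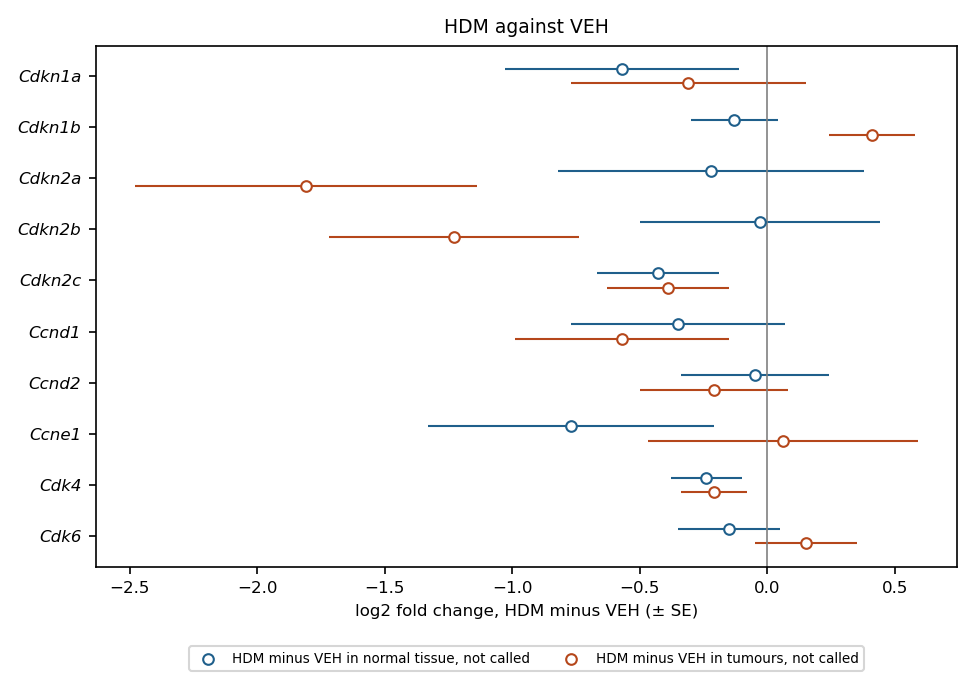
Log2 fold change of HDM over VEH with its SE (horizontal axis) for each of the 10 genes in normal tissue (blue) and in tumours (brown); all points are open because none passed the test. The lowest values are those of Cdkn2a (-1.81) and Cdkn2b (-1.23) in tumours.

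Whether the tumour-to-normal difference itself depended on treatment was asked with the interaction, the difference under HDM minus the difference under VEH. None of the 10 genes passed (0% of all genes did), none had an unadjusted p below 0.05, and the smallest adjusted p was 0.536, for Cdkn1b (0.53 ± 0.25). The DESeq2 Wald test called 219 genes and none of the 10. The largest values were those of Cdkn2a (-1.59 ± 0.89, adjusted p 0.57) and Cdkn2b (-1.20 ± 0.68, adjusted p 0.571). Thus calls made under one treatment only, those of Cdkn1b, Cdkn1a, Cdkn2a and Cdkn2c, were not shown to differ between treatments.

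For each of the 10 genes the 3 genes most like it were sought over the 12 libraries, by the root mean square difference of log2 CPM after centring, among some 11372 tested genes with an average log2 CPM of at least 3. Ccne1 was closest to Foxm1 (0.17 log2 units), Espl1 (0.21) and Rrm2 (0.23), genes of mitosis and of nucleotide supply, against its own SD of 1.92. Cdkn2b was closest to Cish (0.24), Cd200 (0.27) and Gprc5a (0.30), with an SD of 1.80. Cdk6 was closest to Pwp2 (0.11), E2f4 (0.15) and Aen (0.15), with an SD of 0.78. Cdk4 was closest to Hnrnpa0, Eif3d and Ap1s1 (0.10 each), with an SD of 0.60.

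Ccnd1 was closest to its opposite-strand neighbour LTO1 (0.19, SD 0.67), ahead of Gm41396 (0.32) and Trmt1l (0.33), and Cdkn1a to Cyrib (0.27), Dock11 (0.29) and its opposite-strand neighbour Gm64878 (0.29, SD 0.87). Whether reads are shared within these overlapping pairs was not tested. Cdkn1b was closest to Zmym5 and N4bp2 (0.14 each) and Pex26 (0.15, SD 0.42), Cdkn2c to Rpl37a (0.18), Ercc1 and Mrpl13 (0.19 each, SD 0.47), and Ccnd2 to Trip4, Pex6 and Gorasp1 (0.21 each, SD 0.35). Cdkn2a was closest to Eva1c (0.45), Gngt2 (0.48) and Avpi1 (0.49), with an SD of 1.12. These distances describe 12 libraries that differ mainly by tissue and carry no test.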

How the data were processed

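Poly(A)-selected or ribosome-depleted RNA (the labels leave this open) was made into stranded libraries and sequenced in pairs, per the labels' protocols. Raw counts for each Ensembl identifier, with gene lengths, were deposited as a single table, per the file headers. The submitters' processing notes name Trim Galore, STAR, featureCounts (Subread) and the mm39 build, with versions not given in the sources used here. Symbols and positions came from GENCODE M39 on GRCm39, which held 78168 of 78298 identifiers, and the other 130 carried 0.143% of counts.

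Counts were fitted in R 4.3.3 with edgeR 4.0.16 (filterByExpr, minimum count 10, TMM scaling, robust quasi-likelihood F-test, two-sided) with a coefficient per group over all 12 libraries. P-values were Benjamini-Hochberg adjusted over 22190 genes in each of 5 comparisons, and a gene was called at an adjusted p below 0.05. SEs were derived from the fold change and its F statistic. The fit was tested on simulated data. The members, gene lists and motifs were chosen with earlier results of these data known. All members are named. From each other list up to 3 genes per direction are named, those called the same way in both tumour comparisons with the largest mean change, and every gene of lists of up to 3. Alternatives were DESeq2 1.42.0 (size factors, Wald test), scaling by totals, no filter, each library left out, the 4 libraries whose prefixes conflict left out, blocks for replicate number or prefix, and, added after seeing the data, halved counts and the named genes of other lists with each library left out. Promoters are from RefSeq (GRCm38.p6), placed on GRCm39 by exact match. They were found for 8 of 10 members, Ccnd1 and Ccnd2 not among them. All 11 promoters of these members were searched for the E2F, E-box, p53 half-site and GC box letters.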

Additional observations from a re-analysis of the deposited data

How the results depend on the processing

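The rises of Ccne1, Cdk4 and Cdk6 kept their calls under all alternatives, as did the fall of Cdkn2b under HDM. The number of the 10 genes called stayed at 5 or 6 under VEH, and at 6 or 7 under HDM, in all alternatives. Counts of all genes called moved more. For tumour against normal under VEH the count of 8624 became 5603 without the 4 libraries with conflicting prefixes, and 5733 to 9070 with single libraries left out. For HDM against VEH in normal tissue it went from 0 to 38 with the DESeq2 Wald test. For HDM against VEH in tumours, 21 became 8 (totals only), 52 (no filter), 1308 (Wald test), 0 (prefix block and removal of the 4 libraries alike), 33 (halved counts) and 0 to 24 with a library left out. The prefix block links HDM and VEH only through the 4 libraries with conflicting prefixes, so its treatment values depend on their labels. For the interaction, 0 became 219 (Wald test) and 0 to 6 with a library left out. Without the 4 libraries, which leaves 2 per group, Ccne2, Cdkn1c, Rb1, Rbl2, Tfdp2, Trp53inp1 and Klf4 did not pass under VEH (adjusted p 0.05 to 0.167). The causes were not tested.

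Replicate numbers were not taken to pair the libraries, because the labels do not say that they mark an animal. Deviations of same-numbered libraries correlated at -0.36 to 0.30 (median 0.07), and 8 of 18 pairs exceeded 0.1. Of pairs that share neither number nor prefix, 6 of 33 did. In 18 of 36 comparisons, each among the 3 libraries of another group, the best was the library with the own number. These values do not settle whether same-numbered libraries came from the same animal. Libraries with the same prefix correlated at -0.22 to 0.18, with 3 of 6 pairs above 0.1 and 5 of 12 comparisons best with the own prefix. With the replicate block, the tumour count of 21 became 1. The block called Cdkn2c under VEH (0.60, adjusted p 0.025) and lost Cdkn1a under HDM (1.28, adjusted p 0.0547).

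Signs turned only for differences that had not passed. For Ccnd2 the VEH tumour difference was -0.01 with DESeq2 size factors, the Wald test and removal of the 4 libraries, -0.08 with the prefix block and -0.19 to 0.20 with a library left out, and its HDM difference was 0.05 (totals only), 0.09 (removal of the 4) and -0.36 to 0.23. For HDM against VEH in normal tissue, totals alone gave 0.01 for Cdkn2b and Ccnd2, the prefix block, which links treatments only through the 4 conflicting libraries, 1.13 (Cdkn2a), 0.54 (Cdkn2b) and 0.19 (Ccnd2), and removal of the 4 libraries 0.52 (Cdkn1a), 0.41 (Cdkn2b) and 0.31 (Ccne1). Leaving out a library gave -0.88 to 0.30 (Cdkn1a), -0.22 to 0.02 (Cdkn1b), -0.54 to 0.03 (Cdkn2a), -0.32 to 0.23 (Cdkn2b), -0.27 to 0.09 (Ccnd2), -1.15 to 0.39 (Ccne1) and -0.25 to 0.01 (Cdk6). In tumours the prefix block gave 0.53 (Ccnd1), 0.21 (Ccnd2) and -1.14 (Ccne1), and leaving out a library -0.55 to 0.04 (Ccnd2), -0.16 to 0.28 (Ccne1) and -0.04 to 0.27 (Cdk6). For the interaction, the prefix block gave -0.70 (Cdkn1a), 0.55 (Ccnd1) and 0.02 (Ccnd2), removal of the 4 libraries -0.76 (Cdkn1a), 0.37 (Ccnd1) and 0.10 (Ccnd2), and no filter -0.02 (Cdkn2c and Cdk4). Leaving out a library gave -0.61 to 0.57 (Cdkn1a), -0.17 to 0.26 (Cdkn2c), -0.56 to 0.13 (Ccnd1), -0.49 to 0.11 (Ccnd2), -0.33 to 1.21 (Ccne1) and -0.04 to 0.14 (Cdk4). Cdkn2a rests on 2 to 42 counts per library.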
